A study of Mus musculus with 18 samples.

Results

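Of 55401 genes measured in dissected kidney tubules, 8 encode potassium channels or channel subunits of the thick ascending limb (TAL), the salt-reabsorbing part of Henle's loop: *Kcnj1*, *Kcnt1*, *Kcnma1*, *Kcnj10*, *Kcnj15*, *Kcnj16*, *Kcnq1* and *Kcne1*. They were chosen by name, as channels of the apical and basolateral membranes of TAL cells together with a voltage-gated channel and its accessory subunit. RNA was sequenced from 18 pools of tubules dissected by hand from kidneys of adult mice on a C57BL/6J background, each pool from a separate animal. There were 5 pools of cortical TAL (CTAL) and 5 of medullary TAL (MTAL, dissected from the inner stripe of the medulla) of wild type (WT) mice, and 5 pools of CTAL and 3 of MTAL of *Cldn10* conditional knock-out (cKO) mice. All mice, WT included, were homozygous for a floxed *Cldn10* allele (Cldn10 fl/fl). The cKO mice also carried Ksp-Cre, a Cre recombinase driven by the Ksp-cadherin promoter, which is active along the distal nephron and not in the TAL alone. The WT mice were littermates without Cre. *Cldn10* encodes claudin-10, a tight junction protein that forms a paracellular sodium pathway in the TAL.

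TAL cells take up sodium, potassium and chloride from the tubular fluid through the cotransporter NKCC2. Potassium then returns to the lumen through apical channels, which keeps the cotransporter supplied and makes the lumen electrically positive, while chloride and part of the potassium leave through channels of the basolateral membrane. Apical potassium flow is carried mainly by ROMK, the product of *Kcnj1*, and by channels of larger conductance, and basolateral flow mainly by assemblies of the products of *Kcnj10* and *Kcnj16*.

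7 of the 8 products form a pore, and the coding sequence around the selectivity filter, the stretch that lets potassium pass, is shown for 6 of them because it is a feature they share. The sequences are 45 bases each, read in the coding direction from the GENCODE M21 transcript sequences and placed on GRCm38 (the build also called mm10) by their gene models, and the capitals mark the 5 codons of the filter.
Kcnj1: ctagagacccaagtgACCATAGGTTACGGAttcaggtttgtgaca
Kcnt1: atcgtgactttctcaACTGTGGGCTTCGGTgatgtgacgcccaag
Kcnma1: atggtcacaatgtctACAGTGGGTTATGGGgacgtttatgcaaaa
Kcnj15: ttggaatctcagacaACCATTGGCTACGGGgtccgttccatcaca
Kcnj16: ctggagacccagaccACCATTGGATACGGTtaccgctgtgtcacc
Kcnq1: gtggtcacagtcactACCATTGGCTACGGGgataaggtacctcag

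The codon in 4th place of the filter is TTC in *Kcnt1*, TAT in *Kcnma1*, and TAC in the other 4 genes shown. The stretches lie on the plus strand at chr9:32396690-32396734 for *Kcnj1*, chr2:25894352-25894396 for *Kcnt1*, chr16:95295965-95296009 for *Kcnj15* and chr11:111024889-111024933 for *Kcnj16*. That of *Kcnma1* lies on the minus strand at chr14:23528398-23528442. Each of these lies within 1 exon, while that of *Kcnq1* is split by an intron between chr7:143184540 and chr7:143191461 on the plus strand. *Kcne1* (chr16:92345982-92359468, minus strand) encodes a short accessory subunit of 129 residues with no pore, and its coding sequence holds no match to the filter. Among the 4 inward rectifiers, the translated sequences of *Kcnj10* and *Kcnj15* were the most alike, with 64.6% identical residues over 364 aligned, and those of *Kcnj15* and *Kcnj16* the least alike, with 35.8% over 355.

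The pools were first checked against their labels. *Cldn10* was at 500.7 ± 83.6 CPM (the count scaled to a common library size, mean ± SD) in WT CTAL and 173 ± 10.8 in cKO CTAL (n = 5 each), and at 756 ± 59.8 in WT MTAL (n = 5) and 215 ± 66.01 in cKO MTAL (n = 3), with no overlap between genotypes in either segment. *Slc12a1*, which encodes NKCC2, was between 11416 and 16187 CPM in every pool. *Xist*, a transcript of the inactive X chromosome, was between 6.50 and 8.91 CPM in 7 pools (4 of WT MTAL, 2 of WT CTAL and 1 of cKO CTAL) and under 1 CPM in the other 11, although all animals are described as male and the Y-linked *Ddx3y* was at 23.6 CPM or more in all 18 pools. The pools with *Xist* are unevenly spread over the groups. Results without them are also given where the call of a member or another potassium channel gene depends on them. The same holds for the listed genes of salt transport and its kinases. The label of replicate 1 of WT CTAL also names the knock-out, and its *Cldn10* level of 446 CPM lay within the WT CTAL range. Total counts were between 10824328 and 62339991 per pool, and the reads behind a member in a single pool ran from at least 13786 for *Kcnj1* down to 16 for *Kcne1*.

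Levels were compared between members as TPM, which also corrects for transcript length. *Kcnj1* was the most abundant member in every group, with 525.8 ± 37.6 TPM in WT CTAL, 648 ± 84.9 in cKO CTAL, 446 ± 77.8 in WT MTAL and 619 ± 46.7 in cKO MTAL. *Kcnj16* came next in every group, between 217 ± 24.9 TPM in WT MTAL and 437 ± 49.2 in cKO CTAL, and its range did not touch that of *Kcnj1* in any group. *Kcnj10* followed in 3 groups at 78.4 to 83.8 TPM on average, above *Kcnt1* and *Kcnq1*. The order differed in WT MTAL, where *Kcnt1* at 135 ± 23.9 TPM came before *Kcnj10* at 57.1 ± 8.44, with no overlap between them. *Kcnt1* made up 15.4% of the summed TPM of the 8 members in WT MTAL, 6.00% in WT CTAL, 4.42% in cKO MTAL and 2.995% in cKO CTAL. Neighbours in this order whose ranges overlapped were *Kcnj10* and *Kcnt1* in WT CTAL and cKO MTAL, *Kcnt1* and *Kcnq1* in both cKO groups, and the 3 low members *Kcnma1*, *Kcne1* and *Kcnj15*, whose group means lay between 0.710 and 8.005 TPM and whose order changed from group to group.

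**Figure D1:**
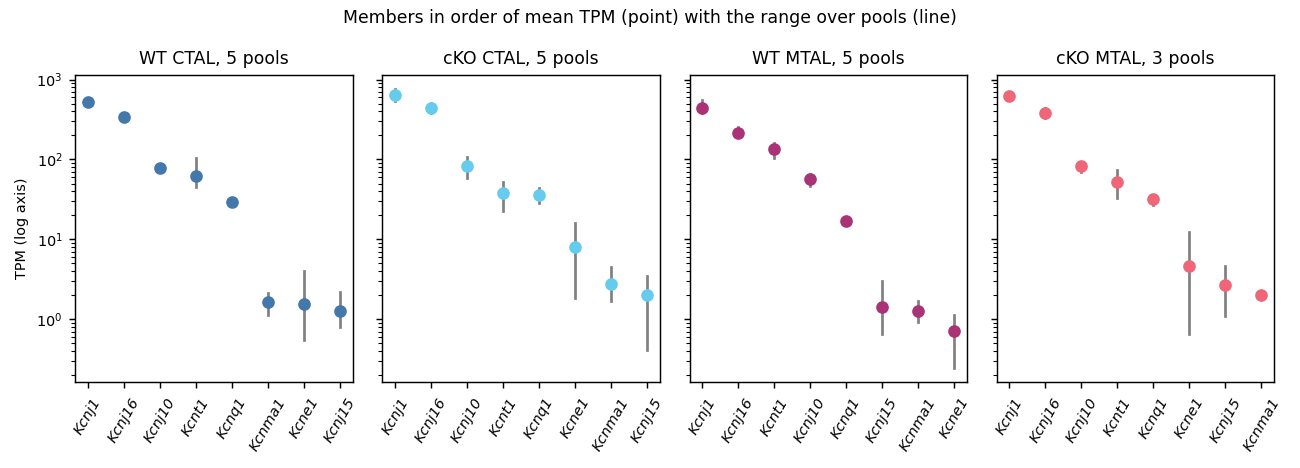
Mean level of the 8 members in TPM on a log axis (points) with the range over pools (lines), in descending order within each group. *Kcnj1* and *Kcnj16* lead in all 4 groups, and *Kcnt1* stands above *Kcnj10* in WT MTAL alone, at 135 against 57.1 TPM.

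Below, the level of a gene is its CPM after TMM scaling of the libraries, listed by rising replicate number (1, 3, 8, 10 and 22 for WT CTAL, 2, 4, 7, 9 and 21 for cKO CTAL, 11, 13, 15, 17 and 19 for WT MTAL, and 16, 18 and 20 for cKO MTAL). Differences are log2 fold changes from edgeR's quasi-likelihood test, and a gene was called changed at an adjusted p under 0.05 over all genes tested in that comparison. The SE after a difference was derived from that test, as the absolute log2 fold change divided by the square root of the F statistic. In such bulk samples, fewer cells of a type and less RNA per cell cannot be told apart.

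**Figure D2:**
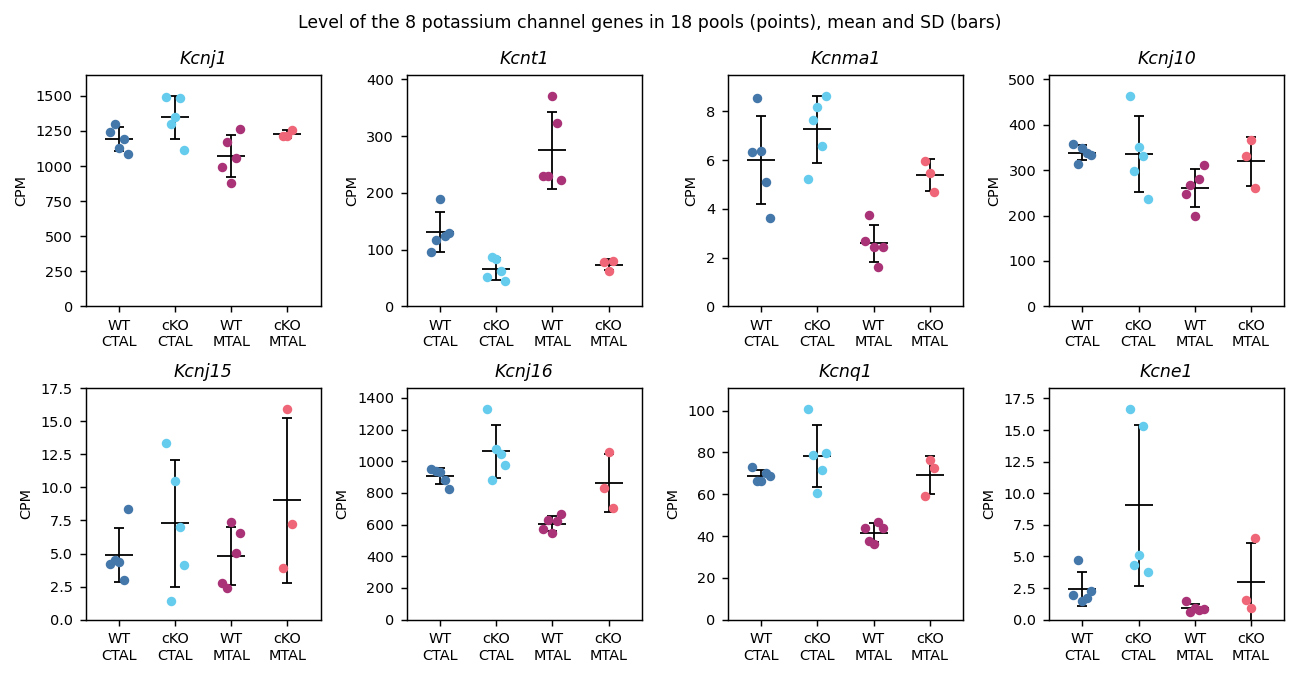
Level of each member in CPM in the 18 pools (points), with the group mean and SD (bars, cut at 0 for *Kcne1* in cKO MTAL). *Kcnt1* is highest in the 5 pools of WT MTAL, where all the other members have their lowest group means.

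*Kcnt1*, which encodes the sodium-activated channel Slack, was called in each of the 3 pairwise comparisons that involved a WT group. Its level was 230.4, 230.1, 372, 323 and 222 CPM in WT MTAL and 78.4, 62.0 and 80.8 CPM in cKO MTAL. All 5 WT pools were thus above all 3 cKO pools, and the difference was -1.85 ± 0.19 on the log2 scale, with an adjusted p of 3.12e-05 in edgeR's quasi-likelihood test. In CTAL the level was 95.1, 117, 189, 125 and 129 CPM in WT and 51.0, 86.5, 84.0, 61.9 and 44.0 CPM in cKO. Here too the groups did not overlap, although the lowest WT pool and the highest cKO pool were close, and the gene fell by 1.02 ± 0.20 on the log2 scale (edgeR quasi-likelihood adjusted p = 0.0196). This call was lost without replicate 21, 2 or 9 of cKO CTAL, with adjusted p between 0.0515 and 0.0554 and log2 fold changes between -0.997 and -0.907, and with limma on TPM, with adjusted p of 0.239 and 0.256 at pseudocounts of 1 and 0.1. Between the WT segments *Kcnt1* was higher in MTAL by 1.06 ± 0.18 on the log2 scale (edgeR quasi-likelihood adjusted p = 0.00118), again with no overlap. Between the cKO segments the difference was 0.25 ± 0.21, which was not called (edgeR quasi-likelihood adjusted p = 0.588). The ratio of *Kcnt1* to *Kcnj1* within a pool, on the CPM scale, was 0.266 ± 0.0999 in WT MTAL against 0.0599 ± 0.00779 in cKO MTAL, and 0.112 ± 0.0352 in WT CTAL against 0.0488 ± 0.0146 in cKO CTAL. It lay between 0.176 and 0.422 in WT MTAL and at 0.0647 or less in cKO MTAL.

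Markers of endothelial cells moved with *Kcnt1* between the genotypes. Of 8 such genes, 5 were called lower and none higher in cKO MTAL than in WT MTAL, and 1 was called lower in cKO CTAL than in WT CTAL. Their summed level was 302 to 475 CPM in WT MTAL and 167 to 275 CPM in cKO MTAL, without overlap, and 253 to 542 CPM in WT CTAL and 208 to 308 CPM in cKO CTAL. Between the WT segments 0 of the 8 were called by edgeR's quasi-likelihood test, by either DESeq2 test or by limma on TPM, with 1 at an unadjusted p under 0.05. The part of the endothelial markers in the *Kcnt1* result was not tested.

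*Kcnj1* encodes ROMK, the apical channel that recycles potassium for NKCC2. Its level was 1243, 1298, 1128, 1195 and 1089.5 CPM in WT CTAL and 1491, 1296, 1351, 1484 and 1116 CPM in cKO CTAL. In MTAL it was 997, 1171, 881, 1059 and 1265 CPM in WT and 1211, 1218 and 1259.8 CPM in cKO. The groups overlapped in every comparison, and the SD was between 2.14% and 13.9% of the mean. The log2 difference between genotypes was 0.25 ± 0.12 in MTAL and 0.17 ± 0.091 in CTAL, and neither was called (edgeR quasi-likelihood adjusted p = 0.223 and 0.514). Between the WT segments it was -0.16 ± 0.095, which was not called either (edgeR quasi-likelihood adjusted p = 0.407).

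*Kcnma1* encodes the large-conductance calcium-activated channel BK and was low in all pools. Its level was 6.35, 8.57, 6.38, 5.12 and 3.64 CPM in WT CTAL and 2.70, 3.74, 2.42, 1.63 and 2.44 CPM in WT MTAL. It was thus lower in WT MTAL, where only replicate 13 reached into the WT CTAL range, and the difference of -1.21 ± 0.29 on the log2 scale was called (edgeR quasi-likelihood adjusted p = 0.0161). On the deposited TPM values the same difference was -0.21 and -0.34 with pseudocounts of 1 and 0.1, and limma did not call it (adjusted p = 0.594 and 0.543). In cKO MTAL the level was 5.99, 5.48 and 4.70 CPM, above all 5 pools of WT MTAL, but the difference of 1.11 ± 0.39 was not called (edgeR quasi-likelihood adjusted p = 0.0975). In cKO CTAL it was 5.23, 7.66, 8.18, 6.59 and 8.65 CPM and overlapped with WT CTAL, with a log2 difference of 0.27 ± 0.23. Between 46 and 433 reads per pool stood behind these values.

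Among the inward rectifiers *Kcnj10*, *Kcnj15* and *Kcnj16*, listed as basolateral, *Kcnj16*, which encodes Kir5.1, was the one called between genotypes. Its level was 569, 627, 544, 621 and 667 CPM in WT MTAL and 829.7, 1059 and 702 CPM in cKO MTAL. Every cKO pool was above every WT pool, and the rise of 0.56 ± 0.13 on the log2 scale was called (edgeR quasi-likelihood adjusted p = 0.0139). Without replicate 18 of cKO MTAL, the highest pool and also that with the highest injury gene sum (9226 CPM), the rise was 0.41 with an adjusted p of 0.0523 in the same test, and limma on TPM did not call the gene either (adjusted p = 0.0557 and 0.0660 at pseudocounts of 1 and 0.1). In WT CTAL the level was 948, 936, 931, 883 and 826 CPM, above all pools of WT MTAL, with a segment difference of -0.59 ± 0.078 (edgeR quasi-likelihood adjusted p = 0.000122). In cKO CTAL it was 1330.3, 884, 1076, 1049 and 977 CPM, which overlapped with WT CTAL at a log2 difference of 0.22 ± 0.099 (edgeR quasi-likelihood adjusted p = 0.392).

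*Kcnj10* encodes Kir4.1, with which Kir5.1 assembles in the basolateral membrane. Its level was 359, 313, 348, 339 and 334 CPM in WT CTAL and 247, 267, 200.2, 281 and 311 CPM in WT MTAL. The segments did not overlap, although the highest MTAL and the lowest CTAL pool were close, and the difference of -0.39 ± 0.097 was called (edgeR quasi-likelihood adjusted p = 0.0221). The call was lost in 10 of 21 alternatives. Among these were the fits without replicate 1 or 8 of WT CTAL or replicate 11 of WT MTAL (adjusted p between 0.0511 and 0.0655), no filter on low counts (0.0632), 1 fit of all pools (0.0934) and limma on TPM (0.0846 and 0.0941). In the cKO the level was 464, 299, 351, 330.4 and 236 CPM in CTAL and 332, 367 and 261 CPM in MTAL. Both cKO groups overlapped with their WT group, and the genotype differences of -0.023 ± 0.13 in CTAL and 0.34 ± 0.14 in MTAL were not called (edgeR quasi-likelihood adjusted p = 0.971 and 0.152). The ratio of *Kcnj16* to *Kcnj10* in CPM was 2.34 ± 0.223 in WT MTAL, 2.68 ± 0.190 in WT CTAL, 2.69 ± 0.193 in cKO MTAL and 3.24 ± 0.519 in cKO CTAL.

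*Kcnj15* encodes Kir4.2, a relative of Kir4.1 that is best known from the proximal tubule. Its level was 4.24, 4.52, 4.35, 2.98 and 8.35 CPM in WT CTAL, 13.3, 1.44, 10.5, 7.03 and 4.10 CPM in cKO CTAL, 2.76, 2.39, 7.40, 5.04 and 6.52 CPM in WT MTAL, and 3.87, 15.9 and 7.25 CPM in cKO MTAL. The SD was 41.5% to 69.0% of the group mean, wider than for any other member but *Kcne1*, whose SD was 35.6% to 103% of the mean. All groups overlapped, and no difference was called, the largest being 0.95 ± 0.47 between the MTAL groups (edgeR quasi-likelihood adjusted p = 0.242). The difference between the WT segments was -0.034 ± 0.35, and its sign turned on the TPM scale and without replicate 22 of WT CTAL or replicate 11 or 13 of WT MTAL.

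*Kcnq1* encodes the voltage-gated channel KvLQT1. Its level was 43.9, 37.9, 36.2, 46.6 and 43.9 CPM in WT MTAL and 59.0, 76.2 and 72.4 CPM in cKO MTAL. All cKO pools were above all WT pools, and the rise of 0.78 ± 0.14 on the log2 scale was called (edgeR quasi-likelihood adjusted p = 0.00335). In WT CTAL it was 73.0, 66.5, 66.2, 70.2 and 68.9 CPM, a narrow range (SD 4.07% of the mean) above all pools of WT MTAL, with a segment difference of -0.74 ± 0.091 (edgeR quasi-likelihood adjusted p = 6.43e-05). In cKO CTAL it was 101, 79.0, 60.6, 71.7 and 79.6 CPM and overlapped with WT CTAL, with a log2 difference of 0.17 ± 0.11 (edgeR quasi-likelihood adjusted p = 0.577). The gene overlaps 12 annotated genes, of which 4 lie on the opposite strand, and of these *Kcnq1ot1*, the long antisense RNA of the locus, had 5870 reads over all pools against 35041 for *Kcnq1*. Whether the counting used the strand is not given in the sources used here. *Kcnq1ot1* itself differed by -0.13 ± 0.35 between the MTAL groups and by 0.48 ± 0.36 between the WT segments, and neither was called (edgeR quasi-likelihood adjusted p = 0.865 and 0.517).

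*Kcne1* encodes minK, the accessory subunit that slows the gating of KvLQT1, and was among the lowest members. Its level was 1.99, 4.71, 1.44, 1.69 and 2.26 CPM in WT CTAL and 16.7, 4.35, 5.15, 15.3 and 3.75 CPM in cKO CTAL. Replicates 2 and 9 of cKO CTAL stood above all other pools of the series, replicate 7 was just above the WT CTAL range, and replicates 4 and 21 lay within it. The difference of 1.98 ± 0.46 just missed the call (edgeR quasi-likelihood adjusted p = 0.0505). It was called by edgeR's likelihood ratio test (adjusted p = 0.00247) and by both DESeq2 tests (adjusted p = 0.000711 and 0.000409). In MTAL the level was 1.47, 0.591, 0.957, 0.797 and 0.815 CPM in WT and 1.55, 0.888 and 6.49 CPM in cKO, of which replicate 20 alone was high. The gene did not reach 3 CPM in enough pools to be tested in either comparison with WT MTAL. Without that filter it differed by 1.69 ± 0.62 between the MTAL groups and by -1.37 ± 0.43 between the WT segments (edgeR quasi-likelihood adjusted p = 0.122 and 0.112).

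The 3 pools with the highest *Kcne1* were also those with the most transcripts of intercalated cells, the acid-base cells of the collecting system. The summed level of 8 intercalated cell markers was 183 and 163 CPM in replicates 2 and 9 of cKO CTAL and 269 CPM in replicate 20 of cKO MTAL, against 118 CPM or less in the other 15 pools. *Slc26a4*, which encodes pendrin, was between 23.5 and 30.7 CPM in these 3 pools and at most 6.40 CPM elsewhere. Without them, *Kcne1* could not be tested between the CTAL groups, since too few pools reached 3 CPM, and the *Kcnt1* difference there was -0.88 with an adjusted p of 0.147 (edgeR quasi-likelihood test). For *Kcnj15*, the summed level of 8 proximal tubule markers was 84.8 CPM in replicate 22 of WT CTAL, 85.6 in replicate 2 of cKO CTAL, 86.2 in replicate 18 and 90.4 in replicate 20 of cKO MTAL, and 54.4 CPM or less in the other 14 pools. Of these markers *Slc5a12* was at 0 in at least 1 pool of each group. Replicate 18 of cKO MTAL and replicate 2 of cKO CTAL had the highest *Kcnj15*, at 15.9 and 13.3 CPM, while replicate 7 of cKO CTAL reached 10.5 CPM with a marker sum of 38.4 CPM. Replicate 2 of cKO CTAL had the highest *Kcnj1*, *Kcnj10*, *Kcnj16* and *Kcnq1* of all pools. It also had the highest summed distal convoluted tubule markers, 263 CPM, with *Slc12a3* at 60.8 CPM. Replicate 21, next with 213 CPM, had the lowest *Kcnj1* and *Kcnj10* of cKO CTAL. Summed principal cell markers were 1032 CPM in replicate 20 of cKO MTAL and 363 CPM or less elsewhere. Replicate 20 had the highest *Kcnj1* and the lowest *Kcnj10* and *Kcnj16* of cKO MTAL. The part of other cells in the levels of *Kcne1*, *Kcnj15* and these members was not tested.

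**Figure D3:**
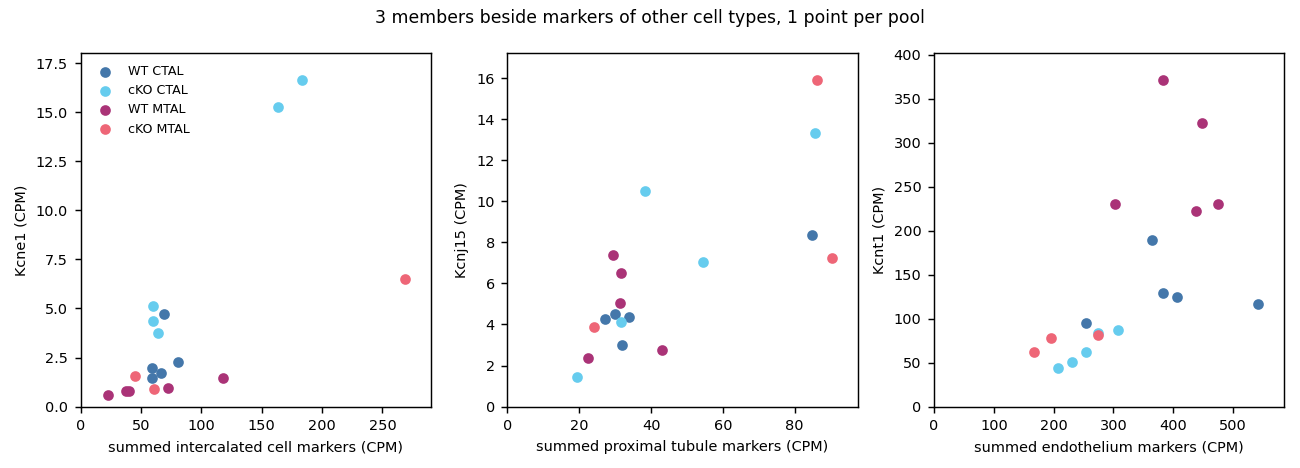
Level of *Kcne1*, *Kcnj15* and *Kcnt1* in CPM (vertical axes) against the summed CPM of 8 markers each of intercalated cells, proximal tubule and endothelium (horizontal axes), with 1 point for each of the 18 pools. The 3 pools with an intercalated sum of 163 CPM or more have the highest *Kcne1*, and the WT MTAL pools lie highest in the *Kcnt1* panel.

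The genotype comparison in MTAL set cKO against WT in the segment where *Cldn10* was more expressed in WT (log2 difference 0.59, edgeR quasi-likelihood adjusted p = 0.00231). Of the 8 members 7 could be tested, of which *Kcnq1* and *Kcnj16* rose, *Kcnt1* fell and 4 were not called, and over all 12060 genes tested 7.01% were called. When a log2 fold change of 1 or more in either direction was also required, *Kcnt1* remained called, at a background of 3.74%. The CPM values of *Kcnt1*, *Kcnq1*, *Kcnj16* and *Kcnma1* did not overlap between the groups, as was the case for 15% of all genes tested. The median log2 fold change of the 7 members was 0.56, and that of all genes tested was 0.0012. The expression of tubular injury genes also differed between these groups, at a summed 1196 to 1443 CPM in WT MTAL and 2273 to 9226 CPM in cKO MTAL, and the part of injury in the channel levels was not tested. Without the pools with *Xist*, 1 pool of WT MTAL was left, whose spread is assumed to be that of the cKO pools. By edgeR's quasi-likelihood test 0 of 11445 genes were then called, with 622 at an unadjusted p under 0.05 (no other tool was run on these pools), and the log2 differences were -1.60 for *Kcnt1*, 0.90 for *Kcnq1* and 0.50 for *Kcnj16*.

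In CTAL, the same comparison called *Kcnt1*, which fell, out of 8 members tested, at a background of 1.22% of 11702 genes. *Kcnt1* also passed the fold change threshold, which 0.47% of the genes tested did together with the adjusted p. Its CPM values did not overlap between the groups, as was the case for 222 genes higher and 144 lower in cKO among those tested. The median over the members was 0.20 on the log2 scale, against 0.0026 over all genes tested. Without the 3 pools with *Xist*, *Kcnt1* differed by -0.99 and was not called (edgeR quasi-likelihood adjusted p = 0.150). The injury gene sum did not overlap between the CTAL groups either, at 1522 to 1790 CPM in WT and 1907 to 5036 CPM in cKO, with *Clu* and *Krt18* called higher among 6 genes tested, and its part in the channel levels was not tested.

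Between the WT segments 5 of 7 members were called, *Kcnt1* higher in MTAL and *Kcnq1*, *Kcnj16*, *Kcnj10* and *Kcnma1* lower, where 6.87% of 11650 genes tested were called. *Kcnt1* and *Kcnma1* also passed the fold change threshold, at a background of 2.32%. *Kcnt1*, *Kcnq1*, *Kcnj16* and *Kcnj10* did not overlap between the segments, as did 7.3% of all genes tested. The median of the 7 members was -0.39 on the log2 scale, against 0.015 over all genes. Markers of other cells also differed between the WT segments. The thin limb sum was 56.4 to 211 CPM in WT CTAL and 182 to 292 CPM in WT MTAL, with *Aqp1* and *Cryab* called higher in MTAL among 3 genes tested. Of 6 immune cell genes tested *C1qa*, *C1qb* and *Cd74* were called lower in MTAL and *Csf1r* higher, at a sum of 162 to 207 CPM in WT CTAL and 114 to 174 CPM in WT MTAL. The injury gene sum did not overlap between the WT segments, at 1522 to 1790 CPM in CTAL and 1196 to 1443 CPM in MTAL. Of 6 injury genes tested *Spp1* and *Clu* were called lower in MTAL, while 4 were higher without a call. The part of all these markers in the channel levels was not tested. Without the pools with *Xist*, 1 pool of WT MTAL was left, whose spread is assumed to be that of the 3 remaining pools of WT CTAL, and *Kcnq1* alone was called (log2 difference -0.89, edgeR quasi-likelihood adjusted p = 0.0158), while the other 4 had adjusted p between 0.0613 and 0.215.

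Between the cKO segments, 0 of 8 members were called by edgeR's quasi-likelihood test at a background of 1.75% of 12044 genes, 0 were under an unadjusted p of 0.05, and 0 were called by edgeR's likelihood ratio test, by either DESeq2 test or by limma on TPM. The differences were -0.11 ± 0.15 for *Kcnq1*, -0.23 ± 0.14 for *Kcnj16* and -0.36 ± 0.27 for *Kcnma1*. For *Kcnj10* and *Kcnj1* they were -0.0014 ± 0.18 and -0.059 ± 0.11, and for *Kcne1* -1.52 ± 0.70. These comparisons share pools: the genotype comparison in MTAL and the WT segment comparison both use WT MTAL, so opposite signs of a gene in them are not independent.

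**Figure D4:**
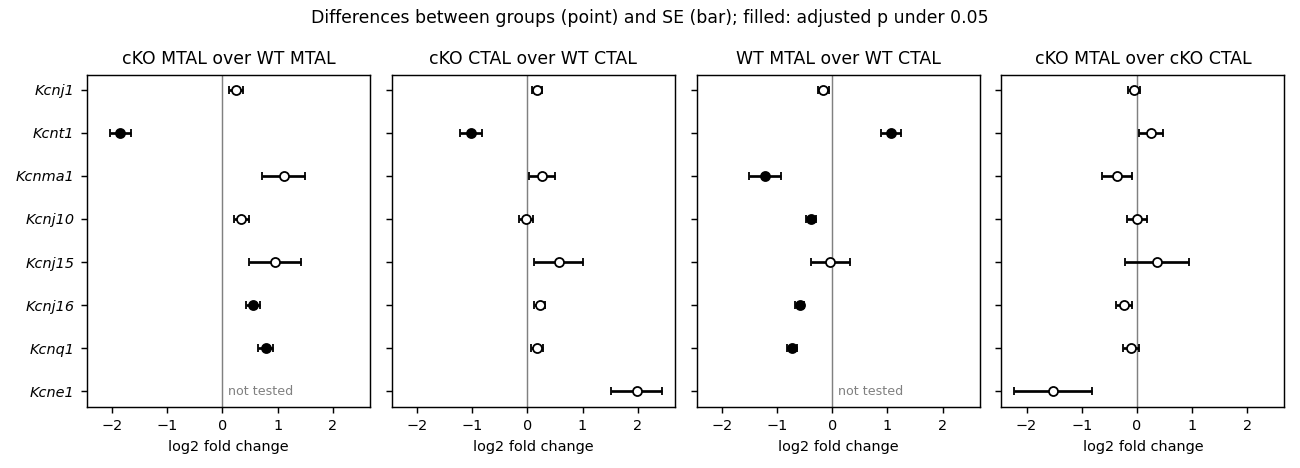
Log2 fold change (points) and SE (bars) of each member in the 4 comparisons, filled where the adjusted p was under 0.05 in edgeR's quasi-likelihood test. *Kcnt1* is filled in the 3 comparisons that involve a WT group and open between the cKO segments, at 0.25.

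Whether the effect of the genotype differed between the segments was tested as an interaction in 1 fit of all 18 pools. By edgeR's quasi-likelihood test 0 of 8 members were called, at a background of 0.286% of 12586 genes, with *Kcnt1* and *Kcnq1* under an unadjusted p of 0.05. The effect in MTAL minus that in CTAL was 0.59 ± 0.17 for *Kcnq1* (adjusted p = 0.0948) and -0.85 ± 0.30 for *Kcnt1* (adjusted p = 0.172). *Kcnq1* was called by edgeR's likelihood ratio test and by both DESeq2 tests, at adjusted p between 0.0356 and 0.0446, and not by limma on TPM. For *Kcnma1* the value was 0.82 ± 0.41, for *Kcnj10* 0.35 ± 0.21, for *Kcnj16* 0.32 ± 0.16 and for *Kcnj1* 0.062 ± 0.14.

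Of 81 other potassium channel genes in the table, 9 to 13 were expressed enough to be tested in a comparison. 2 of 10 were called between the MTAL groups: *Kcnk1*, which encodes the background potassium channel TWIK1, rose by 0.71 ± 0.13 on the log2 scale, and *Kcnn1*, which encodes the small-conductance calcium-activated channel SK1, fell by 0.91 ± 0.23 (edgeR quasi-likelihood adjusted p = 0.00463 and 0.0238). Limma on TPM called 0 of the 10, with adjusted p of 0.0648 and 0.0743 for *Kcnk1* and 0.116 and 0.120 for *Kcnn1*, whose call was lost in 8 of 19 alternatives. *Kcnn1* was also higher in WT MTAL than in WT CTAL, by 0.88 ± 0.16 (edgeR quasi-likelihood adjusted p = 0.00248), as 1 of 9 tested. Without the *Xist* pools, which left 1 pool of WT MTAL, this difference was 0.97 and was no longer called. The differences between the MTAL groups were then 0.58 for *Kcnk1* and -0.94 for *Kcnn1*, and neither was called. Both were named after their values were seen, since neither reached a log2 fold change of 1. The genotype difference of *Kcnk1* and *Kcnn1* in CTAL was 0.17 ± 0.12 and 0.20 ± 0.17. In the CTAL comparison and between the cKO segments 0 of 9 were called by edgeR's quasi-likelihood test, by its likelihood ratio test, by either DESeq2 test or by limma on TPM, with 2 and 0 at an unadjusted p under 0.05.

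Accessory subunits and partners of the channels, such as the beta subunits of BK and the scaffold proteins *Slc9a3r1* and *Slc9a3r2*, together with the antisense RNA *Kcnq1ot1*, were listed as 19 genes, of which 18 were in the table and 6 could be tested. 0 of 6 were called in any comparison by edgeR's quasi-likelihood test, by its likelihood ratio test, by either DESeq2 test or by limma on TPM. At an unadjusted p under 0.05 there were 2 between the MTAL groups, 1 between the CTAL groups, 1 between the WT segments and 0 elsewhere.

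Genes of salt transport were listed beside the channels, and among them *Fxyd2*, *Slc9a2* and *Umod* were called in at least 1 comparison. They encode a subunit of the sodium pump, a sodium/proton exchanger and uromodulin, the main secreted protein of the TAL. Between the WT segments *Fxyd2* was higher in MTAL (0.999 ± 0.13 on the log2 scale), and *Slc9a2* (-1.32 ± 0.13) and *Umod* (-0.78 ± 0.092) were lower. Without the *Xist* pools, which left 1 pool of WT MTAL, the *Umod* difference was -0.87 and was no longer called. Those of *Fxyd2* and *Slc9a2* were then 1.30 and -1.47. Between the MTAL groups *Umod* rose by 0.67 ± 0.11 and *Fxyd2* fell by 0.80 ± 0.14, while *Slc9a2* differed by 0.37 ± 0.19 and was not called. With limma on TPM the *Fxyd2* fall was not called (adjusted p = 0.116 and 0.133), and the *Umod* rise was called at a pseudocount of 1 only (adjusted p = 0.0400 and 0.0510). Without the *Xist* pools, which left 1 pool of WT MTAL, these differences were -1.04 for *Fxyd2* and 0.72 for *Umod*, and neither was called. In CTAL the genotype differences were -0.46 ± 0.11 for *Fxyd2*, 0.20 ± 0.11 for *Slc9a2* and 0.044 ± 0.096 for *Umod*, and edgeR's quasi-likelihood test called none of these 3 genes (adjusted p = 0.0735, 0.518 and 0.907). Between the cKO segments *Slc9a2* (-1.14 ± 0.15) was lower in MTAL and *Fxyd2* (0.68 ± 0.11) was higher, the latter not with limma on TPM (adjusted p = 0.154 and 0.172). The interaction called *Umod* (0.61 ± 0.13, edgeR quasi-likelihood adjusted p = 0.0450), and this call was lost in 16 of 29 alternatives, limma on TPM (adjusted p = 0.157 and 0.160) and the fit without the *Xist* pools (0.531) among them. *Slc12a1* itself was not called in any of them.

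Of 12 genes of the WNK kinases and their regulators, a pathway which sets the activity and traffic of the cotransporter and of ROMK, 10 could be tested. *Wnk1* rose in the cKO in both segments, by 1.16 ± 0.16 in MTAL and 0.73 ± 0.13 in CTAL (edgeR quasi-likelihood adjusted p = 0.000429 and 0.0112), and was lower in WT MTAL than in WT CTAL, with a difference of -1.30 ± 0.095. *Klhl3*, whose product marks WNK kinases for degradation, was lower in WT MTAL, with a difference of -0.64 ± 0.10. *Cab39l*, a cofactor of the kinases downstream, was higher in cKO MTAL than in cKO CTAL by 0.48 ± 0.11. That call was lost in 15 of 19 alternatives, the fit without the *Xist* pools (edgeR quasi-likelihood adjusted p = 0.0717) among them. Without the *Xist* pools *Wnk1* was not called between genotypes in either segment (edgeR quasi-likelihood adjusted p = 0.742 in MTAL and 0.0839 in CTAL). The remaining genes of the list were not called. The interaction called 0 of 10 by edgeR's quasi-likelihood test, by its likelihood ratio test, by either DESeq2 test or by limma on TPM, with 1 at an unadjusted p under 0.05.

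The genes whose level followed each member most closely over the 18 pools, by Pearson's r of log2(CPM + 1) among 12586 genes, are a description, since the pools share group, depth and other cells. *Kcnt1* was followed by *Zbtb20* (r = 0.94), *Kcnj16* by *Emb* (0.96) and *Dusp3* (0.95), and *Kcnq1* by *C130074G19Rik* (0.94) and *Ggt1* (0.93). For *Kcnj1* the genes were *S100a1* (0.90) and *Amt* (0.87), for *Kcnj10* *Gfpt1* (0.84) and *Tmem35a* (0.83), and for *Kcnma1* *Sulf2* (0.89) and *Pkig* (0.88). *Kcne1* was closest to *Slc26a4* (0.91), an intercalated cell gene, and to *Atp6v1c2* (0.87), a proton pump subunit. *Kcnj15* was closest to *Gm4450* (0.87) and *Ugt3a1* (0.83).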

How the data were processed

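Poly-A mRNA of 18 microdissected pools was read from both ends on libraries of a kit that keeps the strand. The authors trimmed the reads, mapped them with DRAGEN to mm10 and deposited, for 55401 genes, estimated counts that are not normalized and TPM values that correct for transcript length. fastp is named as trimmer in the study's methods and Trimmomatic in the submitters' processing notes. All columns were mapped to pools from their labels. Pools that the study excluded for quality or for their *Cldn10* level were not analysed here.

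Estimated counts were rounded, scaled by TMM and tested with edgeR 4.0.16 under R 4.3.3, using its quasi-likelihood test on the pools of each comparison only. A gene was tested if 5 pools, or 3 where cKO MTAL entered, reached 3 CPM, and p-values were adjusted by Benjamini-Hochberg. The interaction was fitted on all 18 pools. TMM factors and CPM for levels come from all 18 pools. Total counts, 10824328 to 62339991 per pool, limit the precision of members with few reads. Scripts were tested on simulated counts.

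Alternatives were edgeR's likelihood ratio test, DESeq2 (version 1.42.0) with TMM or its own size factors, limma (version 3.58.1) on log2(TPM + 1) and log2(TPM + 0.1), library totals, no filter, a fit of all pools with and without a term for *Xist* over 1 CPM, the conflicting label of 1 pool, and each pool left out. Fits without the *Xist* pools, or without the 3 pools over 150 CPM of intercalated markers, were added after seeing the data. The other genes named are those of the lists with an adjusted p under 0.05, other channel genes that also pass a log2 fold change of 1, and up to 2 genes most alike to each member. *Kcnk1* and *Kcnn1* fall outside this rule. The members and all lists were chosen with earlier results of these data known. Sequences were read from the transcripts of GENCODE M21 (GRCm38), which holds 55141 of the identifiers. Some genes and sequences of the lists are not reported here.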

Additional observations from a re-analysis of the deposited data

Results flagged for a closer look

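A search for pools far from the others of their group, made for the 8 members in the 3 groups of 5 pools (24 tests, of which chance alone flags about 1 in 20), marked 2 values. *Kcnj15* was at 8.35 CPM in replicate 22 of WT CTAL, where the gap to the next pool was 0.714 of the whole range, against a limit of 0.71. *Kcne1* was at 4.71 CPM in replicate 3 of WT CTAL, with a gap of 0.750 of the range. Replicate 22 had a summed proximal tubule marker level of 84.8 CPM against 34.0 CPM or less in the other WT CTAL pools, and replicate 3 had the smallest total, 10824328 counts. The part of these in the values was not tested. Without replicate 22 the *Kcnj15* difference between the WT segments was 0.25 on the log2 scale, and without replicate 3 the *Kcne1* difference between the CTAL groups was 2.31 and was called (edgeR quasi-likelihood adjusted p = 0.0354).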

How the results depend on the processing

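Over 837 refits of a member in a comparison, 764 kept the direction and the side of the threshold, 28 kept the direction but lost the call, 14 gained it and 31 turned the direction of a difference that was not called. The number of members called in the MTAL genotype comparison was 3, and 0 without the *Xist* pools. It was 2, without *Kcnj16*, with limma on TPM at either pseudocount or without replicate 18 of cKO MTAL, and 4 in a fit of all pools, with *Kcnma1*, or with the *Xist* term, with *Kcnj15*. In the CTAL genotype comparison it was 1 (*Kcnt1*), and 2 (*Kcnt1* and *Kcne1*) with edgeR's likelihood ratio test, both DESeq2 tests, library totals, no filter or the *Xist* term. It was 0 with limma on TPM at either pseudocount, without the *Xist* pools or without the pools rich in intercalated markers, and 0 to 2 with 1 pool left out (0 without replicate 2 or 9 of cKO CTAL, 2 without replicate 4 of cKO CTAL or 3 of WT CTAL). Between the WT segments it was 5, 3 with limma on TPM at either pseudocount and 1 without the *Xist* pools. It was 4, without *Kcnj10*, with no filter, in a fit of all pools with or without the *Xist* term, with the conflicting label changed, and without replicate 1 or 8 of WT CTAL or 11 of WT MTAL. For the interaction it was 0, and 1 (*Kcnq1*) with edgeR's likelihood ratio test and both DESeq2 tests. The number of all genes called moved too. In MTAL it was 845 of 12060, 222 and 203 with limma, 2060 in a fit of all pools and 1099 with the *Xist* term. In CTAL it was 143 of 11702, 67 and 57 with limma, 331 with edgeR's likelihood ratio test and 360 and 366 with DESeq2. Between the WT segments it was 800 of 11650, 403 and 406 with limma and 817 in a fit of all pools. For the interaction it was 36 of 12586, 337 with edgeR's likelihood ratio test and 353 and 382 with DESeq2. The cause of these changes was not tested. The TPM scale moved the median of all genes by 0.19 to 0.21 between the MTAL groups and 0.13 between the CTAL groups.

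Turned directions were as follows, on the log2 scale. *Kcnj10* between the CTAL groups was 0.030 with library totals, 0.068 and 0.069 on the TPM scales, 0.015 with the conflicting label changed, and -0.16 to 0.080 with 1 pool left out. *Kcnj10* between the cKO segments was 0.00028 and 0.00050 on the TPM scales, 0.14 without the *Xist* pools, 0.30 without the intercalated-rich pools and -0.12 to 0.14 with 1 pool left out. *Kcnj15* between the WT segments was 0.041 and 0.017 on the TPM scales and -0.25 to 0.25 with 1 pool left out. With 1 pool left out it was -0.29 to 0.70 between the cKO segments and -0.30 to 0.73 in the interaction. *Kcnj1* between the cKO segments was 0.0072 without the intercalated-rich pools and, in the interaction, -0.015 without the *Xist* pools. In the interaction *Kcnma1* was -0.069 and -0.032 on the TPM scales, and *Kcne1* was 0.45 with the *Xist* term, 0.067 with the label changed, 0.32 without the *Xist* pools and -1.47 to 0.26 with 1 pool left out.

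No paired analysis was possible because the groups share no replicate numbers. Between 16 and 1005 reads per pool limit *Kcne1*, and 33 to 653 limit *Kcnj15*.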

Other observations

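The count and TPM of a gene together give the transcript length that the quantification used, which was expressed relative to the median of 8725 well covered genes in the same pool. It was steady for *Kcnj1* (1.17 to 1.25), *Kcnj16* (1.26 to 1.45) and *Kcnj10* (2.21 to 2.46), and wider for *Kcnt1* (0.718 to 1.31). For *Kcnma1* it was 1.47 to 3.68 in WT CTAL and 0.794 to 1.23 in WT MTAL, without overlap, so counts and TPM of this gene gave unlike differences between the segments. For *Kcne1*, which has annotated transcripts of 3174 and 602 bases, it ran from 0.349 to 1.40, and it was 0.349, 0.596 and 0.685 in the 3 pools rich in intercalated cell markers.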
